A study of Homo sapiens with 8 samples.

Results

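The steroid receptor coactivators (SRCs) and the enzymes they bring to chromatin were examined in LP-1 cells, a human multiple myeloma cell line. The group was defined by gene symbol and comprised 10 of the 18564 genes in the deposited gene table: the p160 family NCOA1 (SRC-1), NCOA2 (SRC-2) and NCOA3 (SRC-3), the other genes of the nuclear receptor coactivator series NCOA4, NCOA5, NCOA6 and NCOA7, and the recruited enzymes CREBBP (CBP), EP300 (p300) and CARM1 (PRMT4). Their NCBI gene numbers are 8648, 10499 and 8202 for the p160 family, 8031, 57727, 23054 and 135112 for NCOA4 to NCOA7, and 1387, 2033 and 10498 for the enzymes. The same genes accounted for 79 of the 87452 entries in the transcript table. All 10 genes had enough reads to be tested.

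RNA was sequenced from wild-type (WT) LP-1 cells and from bortezomib-resistant (BR) LP-1 cells, which the labels describe as kept in bortezomib for 2 months. Cells of each line received DMSO (vehicle) or 25 nM SI-2, a compound that inhibits SRC-3, for 24 h. Each of the 4 conditions had 2 libraries, 8 in all. There was 1 BR derivative of 1 cell line, so resistance, prolonged bortezomib culture and the drift of a single derivative cannot be told apart, and whether bortezomib was present at harvest is not given. The study describes its sequenced BR samples as biologically independent experiments. For the WT libraries the sources used here do not say whether they came from separate cultures, so p-values involving them measure the spread between libraries, which may be technical.

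The p160 coactivators bind ligand-activated nuclear receptors and other transcription factors and carry separate surfaces for CBP/p300, which acetylate histones, and for CARM1, which methylates histone H3 on arginine. NCOA6 sits in histone methyltransferase complexes with KMT2C or KMT2D. The remaining NCOA names are historical in part, since NCOA4 is best known as the cargo receptor that sends ferritin to lysosomes, and NCOA7 carries a TLDc domain and is linked to the vacuolar proton pump. SRC-3 is also named AIB1, amplified in breast cancer, and its activity is regulated largely at the protein level. The data here are mRNA only.

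Library totals were 17997771 to 18570027 estimated reads, so depth was nearly equal. The plasma cell markers TNFRSF17, PRDM1, XBP1, IRF4 and CD38 were each at 30.3 FPKM (fragments scaled by gene length and library size) or more in every library, and SDC1 was at 5.12 to 12.1. Of 6 markers of other cell types found in the table, CD3E, CD14 and HBB were at no more than 0.11 FPKM in all 8 libraries and LYZ was at 1.60 to 3.17. COL1A1 and EPCAM were both highest in the second BR SI-2 library, at 9.84 and 0.84 FPKM, and were at most 0.07 and 0.03 in the other 7. The COL1A1 and EPCAM values of the second BR SI-2 library, 1 of 2 in its condition, were 1032 and 26 estimated reads, whose source was not tested. A bulk library cannot tell fewer cells of a type from less RNA per cell. The replicates were not duplicates, because the squared differences between their counts averaged 26.8 to 40.2 times those of counting noise (chi-square per degree of freedom).

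All 10 genes were expressed in every library. NCOA4 was the highest at 71.5 ± 6.87 FPKM (SD, n = 8), above 94.5% of all genes in the table. NCOA5, a coregulator of estrogen receptors, followed at 27.2 ± 2.04, and NCOA3 came next at 23.4 ± 3.30. EP300 (23.2 ± 3.40), CARM1 (21.9 ± 2.20) and NCOA6 (19.8 ± 3.57) lay just below. CREBBP (15.4 ± 2.25) and NCOA2 (15.2 ± 1.78) formed the next step, and NCOA1 (7.31 ± 0.999) and NCOA7 (7.16 ± 1.36) the lowest. The order was clear at 3 places only: NCOA4 above NCOA5, NCOA6 above CREBBP and NCOA2 above NCOA1 held in all 8 libraries. The neighbours NCOA5 and NCOA3, NCOA3 and EP300, and CARM1 and NCOA6 stood in the order of their means in 6 of 8 libraries, EP300 and CARM1 in 5, and CREBBP and NCOA2 and NCOA1 and NCOA7 in 4.

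**Figure D1:**
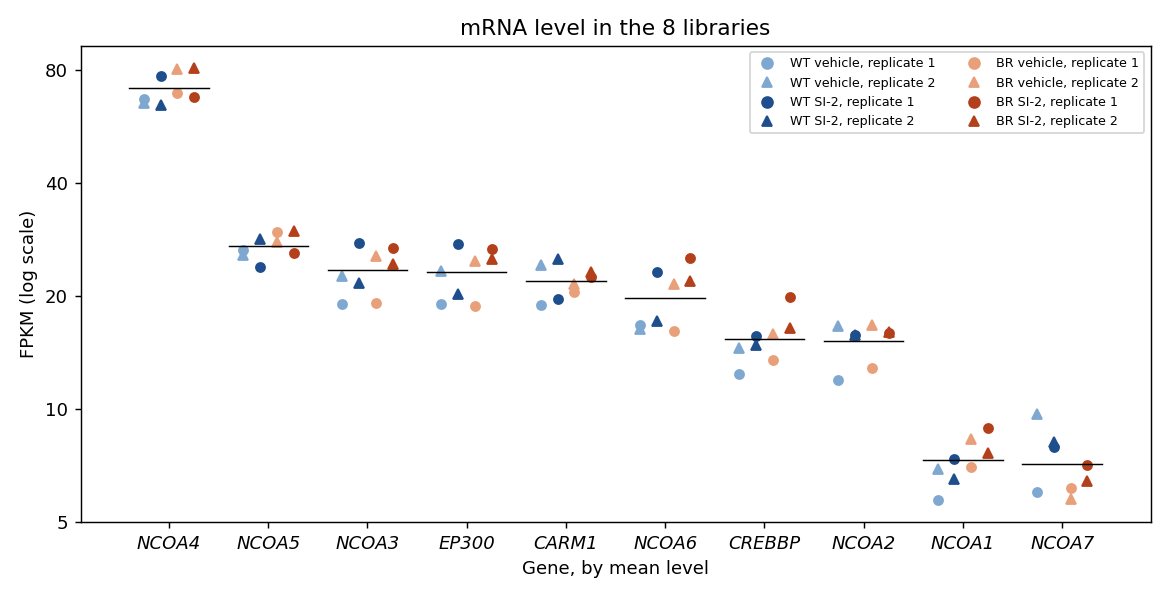
FPKM (log scale) of the 10 genes in the 8 libraries, ordered by mean level, with colour for the condition, shape for the replicate and a black line for the mean of 8. NCOA4 lies at 64.5 to 81.1 FPKM, above all others, and NCOA1 and NCOA7 lie between 5.74 and 9.68.

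Within the p160 family, SRC-3 mRNA was the most abundant in each library. The ratio of NCOA3 to NCOA2 FPKM was 1.36 to 1.76 over the 8 libraries and the ratio of NCOA3 to NCOA1 was 2.73 to 3.76. Of the 2 related acetyltransferases, EP300 exceeded CREBBP by 1.34 to 1.75 times. Among all 45 pairs of the 10 genes, NCOA3 and EP300 kept the most constant ratio, 0.970 to 1.07, with an SD of 0.045 on the log2 scale. The next most constant pair was NCOA1 and CREBBP (SD 0.092), and the least constant was NCOA6 and NCOA7 (SD 0.40). These ratios share libraries and are given as a description.

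SRC-3 is encoded on chromosome 20, and the transcript table listed 4 RefSeq transcripts for it. GENCODE v29 (GRCh38) pairs NM_006534.3 with a coding sequence of 4263 bases, and pairs NM_181659.2 and NM_001174087.1 with the same model of 4275 bases, which holds 12 more coding bases at chr20:47649098-47649109. The pairing is GENCODE's, and the 2 records themselves were not compared. NM_001174088.1 is paired with a model of 4248 bases, which gains 30 bases at chr20:47634018-47634047 and lacks 45 at chr20:47639577-47639621. All 3 stretches are in coding exons on the plus strand and each keeps the reading frame. They are shown because they are the coding letters by which reads could tell the 3 models apart. Capitals mark the bases that 1 model of a compared pair carries and the other lacks, with 20 shared bases in lower case on each side. The model of 4275 bases differed from that of NM_006534.3 only by the 12 bases, so it also carries the 45.
NM_181659.2 and NM_001174087.1: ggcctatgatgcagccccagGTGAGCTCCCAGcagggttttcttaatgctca
NM_006534.3 at the same place: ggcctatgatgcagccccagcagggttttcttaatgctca
NM_001174088.1, gained bases: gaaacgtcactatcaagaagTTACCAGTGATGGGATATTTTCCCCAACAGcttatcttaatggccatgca
NM_006534.3, bases absent from NM_001174088.1: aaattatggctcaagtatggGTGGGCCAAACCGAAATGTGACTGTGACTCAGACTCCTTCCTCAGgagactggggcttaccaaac

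The study used SI-2 to block SRC-3, and the first question was whether the mRNA of SRC-3 or its family changed with the inhibitor. NCOA3 was at 19.07 and 22.58 FPKM in WT vehicle cells and at 27.67 and 21.68 in WT SI-2 cells. In BR cells it was at 19.19 and 25.63 with vehicle and at 26.85 and 24.40 with SI-2. Replicate 1 gave the lowest vehicle value and the highest SI-2 value in both lines, while the second replicates of both treatments lay between these, so the groups overlapped. Over the 8 libraries the log2 fold change with SI-2 was 0.20 ± 0.12 (SE, 4 against 4 libraries; adjusted p = 0.999, edgeR's quasi-likelihood test). Its 95% interval ran from -4.48% to 38.4%, so a fall of NCOA3 mRNA by more than that lower bound lay outside the interval. That comparison took both lines together, with no term for the line or the replicate number. The estimates within a line, given below, were less precise, so the bound does not hold for either line alone.

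NCOA2 was at 11.96 and 16.59 FPKM in WT vehicle cells and at 15.70 and 15.72 in WT SI-2 cells, and at 12.85 and 16.73, then 15.94 and 16.08, in BR cells. The SI-2 libraries were close to each other and lay between the vehicle libraries, and the estimate was 0.10 ± 0.12 on the log2 scale (adjusted p = 0.999, edgeR). NCOA1 was at 5.74 and 6.91 FPKM with vehicle and at 7.36 and 6.53 with SI-2 in WT cells. In BR cells it was at 7.03 and 8.31, then 8.91 and 7.65. The vehicle and SI-2 values of NCOA1 overlapped in both lines (log2 fold change 0.15 ± 0.14, adjusted p = 0.999, edgeR).

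The largest estimates with SI-2 belonged to NCOA6 and CREBBP. NCOA6 was at 16.74 and 16.35 FPKM in WT vehicle cells and at 23.10 and 17.15 in WT SI-2 cells, and at 16.16 and 21.49, then 25.22 and 21.94, in BR cells. The 95% interval of its log2 fold change, 0.28 ± 0.13, ran from -0.014 to 0.58 (adjusted p = 0.999, edgeR). CREBBP was at 12.40 and 14.54 FPKM in WT vehicle cells, 15.67 and 14.81 in WT SI-2 cells, 13.53 and 15.84 in BR vehicle cells and 19.92 and 16.46 in BR SI-2 cells. Both SI-2 libraries of a line lay above both of its vehicle libraries in WT and in BR cells, which held for no other of the 10 genes. In the 13520 genes tested, 2.46% lay above in this way in both lines and 2.18% below. The log2 fold change of CREBBP was 0.24 ± 0.12 (adjusted p = 0.999, edgeR), and pooled over the lines the CREBBP groups overlapped, since BR vehicle 2 was above WT SI-2 2 in scaled counts.

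EP300, which tracked NCOA3, was at 19.02 and 23.29 FPKM with vehicle and at 27.47 and 20.30 with SI-2 in WT cells. In BR cells EP300 was at 18.82 and 24.79, then 26.62 and 25.06. With SI-2 it differed by 0.19 ± 0.13 on the log2 scale (adjusted p = 0.999, edgeR). CARM1 was at 18.91 and 24.25 FPKM with vehicle and at 19.58 and 25.07 with SI-2 in WT cells, and at 20.45 and 21.53, then 22.42 and 23.11, in BR cells. Its WT replicates differed more than its treatments (log2 fold change 0.060 ± 0.12), with both libraries numbered 2 above both numbered 1. NCOA5 was at 26.45 and 25.75, then 23.91 and 28.41, in WT cells and at 29.64 and 27.89, then 26.06 and 29.76, in BR cells, again in the order vehicle then SI-2. NCOA4, NCOA5 and NCOA7 differed by 0.022 ± 0.10, -0.044 ± 0.10 and 0.062 ± 0.18. The sign of these last 4 estimates changed when single libraries were left out.

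With SI-2, 0 of the 10 genes were called at an adjusted p under 0.05 by edgeR, DESeq2 or limma, and 0 had an unadjusted p under 0.05 in any of the 3. Among all genes edgeR called 0 of 13520 (0%), and 2.22% had an unadjusted p under 0.05. The median log2 fold change was 0.13 over the 10 genes, 9 of them positive, against 0.00035 over all genes, of which 6773 of 13520 were positive. The 10 genes share libraries and the longer ones varied together (below), so their signs are not independent. Pooled over the lines, 0 of the 10 had SI-2 and vehicle groups that did not overlap, where 0.688% of all genes were higher and 0.754% lower without overlap.

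**Figure D2:**
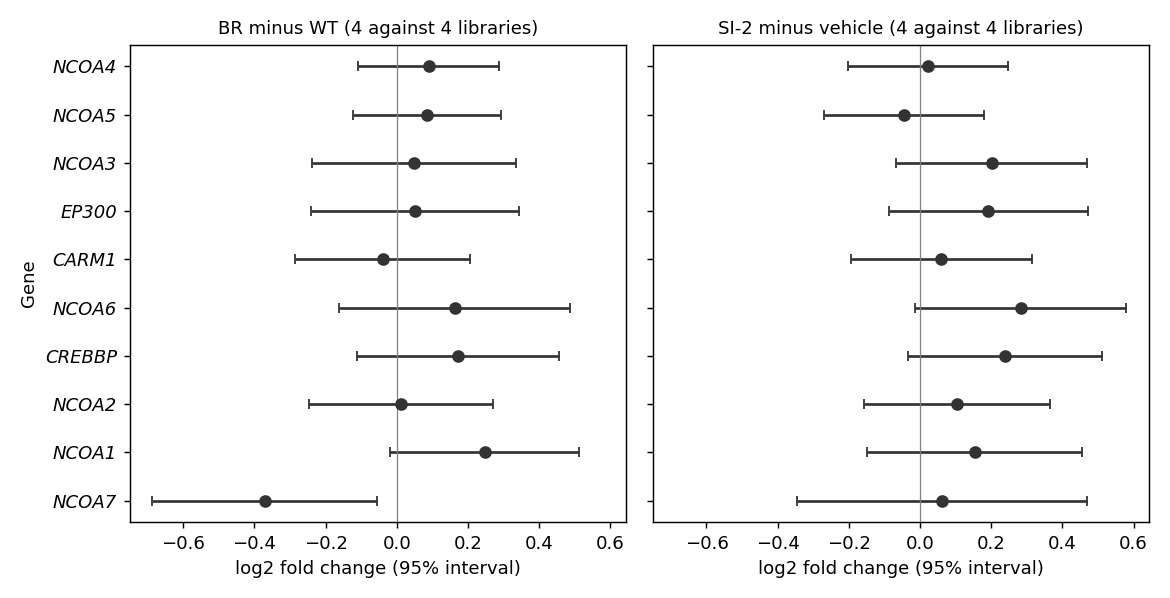
Log2 fold change (x axis) of each gene (y axis, by mean level) with its 95% interval from edgeR's fit, for BR minus WT (left) and SI-2 minus vehicle (right), 4 libraries a side. Every interval spans 0 except that of NCOA7 in BR against WT, -0.69 to -0.054, whose adjusted p was 0.282.

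Taken line by line, the estimates with SI-2 were less precise. In BR cells (2 against 2 libraries) the log2 fold changes of the 10 genes ran from -0.073 to 0.30, and in WT cells from -0.015 to 0.26. For NCOA3 they were 0.18 ± 0.19 in BR cells and 0.23 ± 0.19 in WT cells, and the difference between the lines was -0.049 with a 95% interval from -0.66 to 0.56. Single libraries moved these values: with 1 library left out the NCOA3 estimate ran from 0.0079 (without BR vehicle 1) to 0.35 (without BR vehicle 2) in BR cells, and from 0.055 (without WT SI-2 1) to 0.38 (without WT SI-2 2) in WT cells. NCOA1 gave 0.15 ± 0.19 and 0.16 ± 0.19, and NCOA2 gave 0.092 ± 0.19 and 0.12 ± 0.19. In each of these comparisons and in the interaction, edgeR called 0 of the 10 genes and 0 had an unadjusted p under 0.05. DESeq2 and limma also called 0 of the 10. Among the 13896 genes edgeR called 0% in each.

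The second question was whether the coactivators differed between BR and WT cells. NCOA7 showed the only unadjusted p under 0.05. It was at 6.0 and 9.68 FPKM in WT vehicle cells and at 7.94 and 8.20 in WT SI-2 cells, and at 6.18, 5.75, 7.08 and 6.43 in the 4 BR libraries, in the order vehicle then SI-2. Thus 3 of the 4 WT libraries lay above all BR libraries, and WT vehicle 1 lay within the BR range. NCOA7 was 0.77-fold as abundant in BR cells, with a difference of -0.37 ± 0.14 on the log2 scale (adjusted p = 0.282, edgeR). The estimate was -0.48 without WT vehicle 1 and -0.26 without WT vehicle 2, and over all alternatives the adjusted p was 0.169 to 0.636 (edgeR, DESeq2 and limma). In vehicle libraries alone it was -0.42 ± 0.23 (adjusted p = 0.967, edgeR), and -0.036 without WT vehicle 2 and -0.70 without WT vehicle 1.

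NCOA1 had the largest estimate in the other direction. Its 4 BR libraries, at 7.03 to 8.91 FPKM, and its 4 WT libraries, at 5.74 to 7.36, overlapped. The log2 fold change was 0.25 ± 0.12 with a 95% interval from -0.017 to 0.51 (adjusted p = 0.375, edgeR). NCOA3 differed by 0.049 ± 0.13, an interval of -0.24 to 0.33, and NCOA2 by 0.011 ± 0.12, an interval of -0.25 to 0.27. In vehicle libraries alone these were 0.25 ± 0.19 for NCOA1, 0.074 ± 0.19 for NCOA3 and 0.023 ± 0.19 for NCOA2. For NCOA3, a BR level over 1.26 times or under 0.85 times the WT level lay outside the 95% interval of the comparison of 4 with 4 libraries. That comparison took vehicle and SI-2 libraries together. In vehicle libraries alone the interval for NCOA3 was wider, 0.78 to 1.42 times the WT level.

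The remaining genes gave CREBBP 0.17 ± 0.13, NCOA6 0.16 ± 0.15, NCOA4 0.090 ± 0.090, NCOA5 0.086 ± 0.094, EP300 0.051 ± 0.13 and CARM1 -0.040 ± 0.11. Of the 10 genes, edgeR called 0 at an adjusted p under 0.05, as did DESeq2 and limma, with 1, 1 and 0 at an unadjusted p under 0.05. Of all 13520 genes, edgeR called 0.362% and 14.4% had an unadjusted p under 0.05. The BR and WT groups overlapped for each of the 10, where 3.84% of all genes were higher and 4.36% lower in BR cells without overlap. None of the 10 had both BR libraries beyond both WT libraries in the same direction under vehicle and under SI-2, where 6.23% of genes were higher in this way and 7.4% lower. In vehicle libraries alone 0 of the 10 were called or had an unadjusted p under 0.05 in any of the 3 tools, with 0% of genes called by edgeR.

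Libraries of the same condition also differed, and the longer genes shared these differences. The 6 genes of 6000 nt or more (NCOA1, NCOA2, NCOA3, NCOA6, CREBBP and EP300) lay below their own means in WT vehicle 1 and in BR vehicle 1, with medians of -0.28 and -0.21 on the log2 scale. They lay above their means in WT SI-2 1 and in BR SI-2 1, with medians of 0.14 and 0.29. In the second replicates the medians were -0.030 with vehicle and -0.10 with SI-2 in WT cells, and 0.092 with vehicle and 0.036 with SI-2 in BR cells. The SI-2 libraries numbered 1 were thus above the vehicle libraries numbered 1 in both lines, and those numbered 2 were not.

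**Figure D3:**
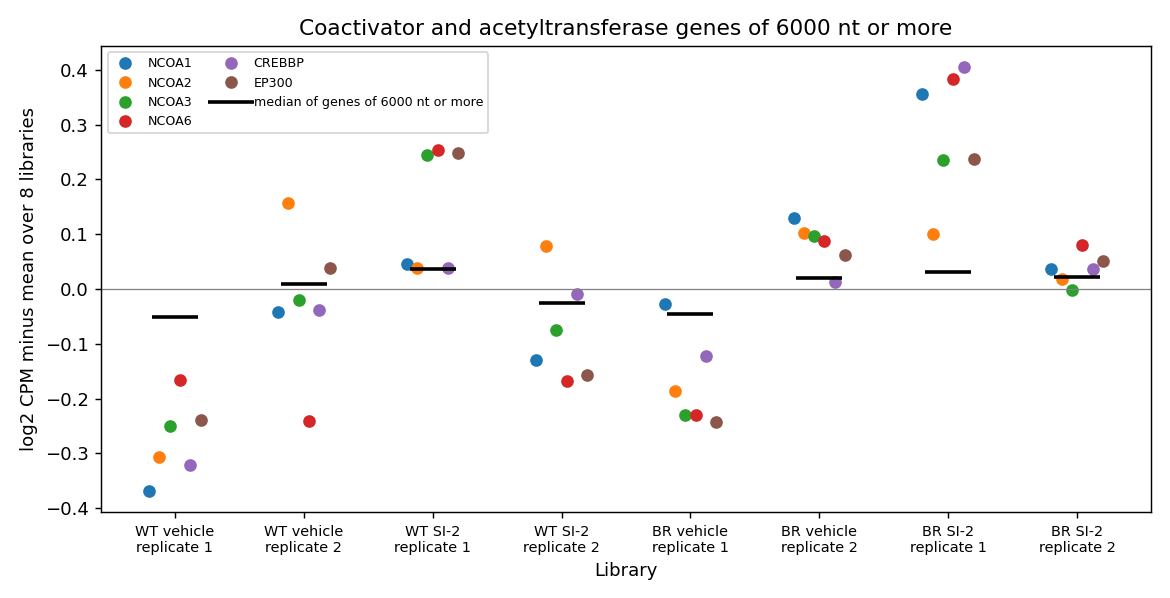
Log2 CPM minus the gene's mean over 8 libraries (y axis) for the 6 genes of 6000 nt or more, by library (x axis), with black bars for the median of all 1932 tested genes of that length. The genes lie at -0.37 to -0.027 in the first vehicle libraries and at 0.037 to 0.40 in the first SI-2 libraries, while the bars stay between -0.051 and 0.037.

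Long genes as a class moved the same way, by much less. The median over the 1932 tested genes of 6000 nt or more was -0.051 in WT vehicle 1 and -0.046 in BR vehicle 1, and 0.037 in WT SI-2 1 and 0.031 in BR SI-2 1. With the trend on gene length removed in each library, an alternative chosen after the data had been seen, the log2 fold changes with SI-2 were 0.17 for NCOA3, 0.25 for NCOA6 and 0.20 for CREBBP. The part of gene length or RNA quality in the shared variation was otherwise not tested. The 4 shorter genes followed it to unequal degrees. NCOA7 had the same signs in the libraries numbered 1, at -0.18 in WT vehicle 1, -0.13 in BR vehicle 1, 0.17 in WT SI-2 1 and 0.030 in BR SI-2 1, and CARM1 was at -0.17, -0.053, -0.16 and 0.054 in the same order. NCOA4 ran from -0.12 to 0.12 over the 8 libraries and NCOA5 from -0.20 to 0.16, with NCOA5 lowest in WT SI-2 1, where NCOA3, NCOA6 and EP300 were high. All 10 genes lay below their own means in WT vehicle 1, as did 8 of the 10 in BR vehicle 1.

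Each gene's reads were also divided among its transcripts by the authors. The share of SRC-3 reads given to a transcript swung widely between libraries of the same condition. NM_181659.2 held 15.4% and 41.2% of the NCOA3 count in WT vehicle cells, 32.6% and 62.4% in WT SI-2 cells, 76.1% and 0% in BR vehicle cells and 32.7% and 43.7% in BR SI-2 cells. NM_001174087.1 held 23.9% and 78.3% in the same BR vehicle libraries and its lowest share, 15.2%, in WT SI-2 2. Both are paired with the model that holds the 12 bases shown above. Whether these 2 RefSeq records differ elsewhere was not examined, so what separates their reads is not known here. Together they made up 65.4% to 99.995% of NCOA3 reads (mean 78.1 ± 10.9%, SD, n = 8). NM_006534.3, without the 12 bases, held 0.0053% in BR vehicle 1 and 10.6% to 29.2% in the other 7 libraries. The lone value near 0 was therefore in 1 of the 2 BR vehicle libraries, with 19.6% in the other.

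**Figure D4:**
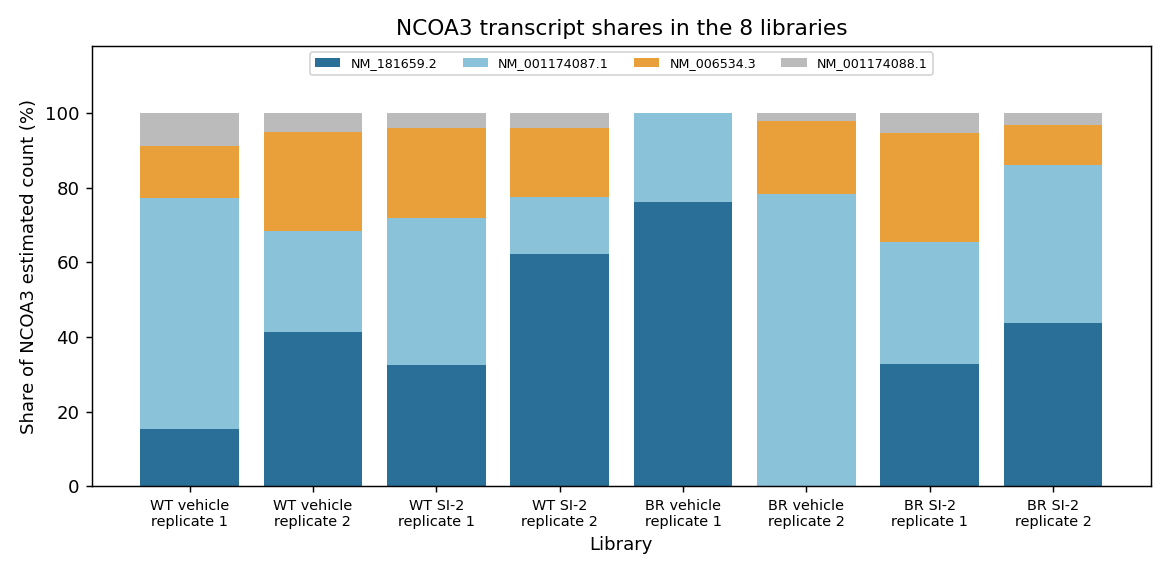
Share of the NCOA3 estimated count (y axis, percent) given to each of 4 RefSeq transcripts in the 8 libraries (x axis). NM_181659.2 ranges from 0% to 76.1%, both in BR vehicle cells, while its sum with NM_001174087.1 stays at 65.4% or more.

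The other genes fell into 2 kinds. In NCOA4, CARM1, EP300 and CREBBP 1 transcript led throughout, with mean shares of 99.1% (NM_001145263.1), 89.6% (XM_005259708.4), 81.6% (NM_001429.3) and 74.6% (NM_004380.2). In NCOA1, NCOA2, NCOA6 and NCOA7 the leading transcript held 22.8% to 37.5% on average, and NCOA5 lay between at 54.7%. The leading CREBBP transcript held 69.2%, 74.0%, 75.1% and 56.4% in the WT libraries and 82.9%, 79.3%, 83.2% and 76.4% in the BR libraries, which did not overlap. The difference of 11.8 percentage points had an exact two-sided permutation p of 0.0286, the smallest that 4 against 4 libraries allow, and an adjusted p of 0.428 over the 20 tests of 10 genes in both comparisons. It was the only 1 of the 20 with an unadjusted p under 0.05. An adjusted p under 0.05 would need most of the 20 tests to reach the smallest p allowed, so this test could hardly call any share. How often the leading shares of other genes did not overlap is not given here. For NCOA3 the leading share differed by 8.43 percentage points between BR and WT cells (exact permutation p = 0.60) and by -15.4 between SI-2 and vehicle (exact permutation p = 0.371).

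Of the 79 transcripts, 55 had enough reads to be tested, 46 were predicted models (XM or XR identifiers) and 49 were at 0 in at least 1 library. In edgeR's test over all 45541 transcripts 0 of the 55 were called in either comparison, where 0.0022% of transcripts were called between BR and WT cells and 0% with SI-2. An unadjusted p under 0.05 was seen for 3 between BR and WT cells and for 4 with SI-2, against 3.92% and 1.66% of all transcripts. The leading CREBBP transcript was among the 3 (log2 fold change 0.41 ± 0.16, adjusted p = 1, edgeR), as were XM_005264626.1 of NCOA1 (0.87 ± 0.27) and XM_017027747.2 of NCOA6 (1.15 ± 0.43), each with an adjusted p of 1 (edgeR).

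The 4 with SI-2 were predicted models. XM_005264625.1 of NCOA1 had 0 and 0 reads in WT vehicle cells and 103 and 228 in WT SI-2 cells, and 11.7 and 19.2, then 83.0 and 71.5, in BR cells. All 4 SI-2 libraries thus lay above all 4 vehicle libraries, and its share of NCOA1 reads was 0% to 1.90% with vehicle and 7.26% to 28.3% with SI-2. The fitted log2 fold change was 3.96 ± 1.45 (adjusted p = 1, edgeR), with 2 of the 4 vehicle libraries at 0. The curated NM_003743.4 of NCOA1 also lay higher in all 4 SI-2 libraries than in all 4 vehicle libraries. It had 0 and 0, then 86.0 and 68.4 reads in WT cells, and 37.4 and 50.4, then 147.9 and 75.1, in BR cells. Its log2 fold change was 2.11 ± 1.52 (unadjusted p = 0.203, edgeR). XM_017005169.2 of the same gene differed by -1.16 ± 0.48 with overlapping groups, XM_017012969.2 of NCOA2 by -0.77 ± 0.28 without overlap, and XM_011528721.3 of NCOA6 by 0.90 ± 0.38 with overlap, each with an adjusted p of 1 (edgeR). Of the 55 transcripts, 3 were higher and 1 lower with SI-2 without overlap, where 1.25% and 1.31% of all transcripts were, and 1 was higher and 1 lower in BR cells, where 2.01% and 2.26% were.

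Enzymes and partners around these genes gave the setting. NSD2, an H3K36 methyltransferase overexpressed in myelomas with the translocation that LP-1 carries, was at 71.01, 74.39, 85.51 and 78.48 FPKM in WT cells and at 85.56, 112.62, 96.96 and 110.41 in BR cells. NSD2 thus exceeded NCOA3 in every library, and its BR values lay above its WT values, at the nearest by 85.56 against 85.51. The log2 fold change was 0.37 ± 0.096 (adjusted p = 0.15, edgeR). PRMT1, the main arginine methyltransferase and a known p160 partner, differed between BR and WT cells by -0.27 ± 0.12 (adjusted p = 0.342, edgeR), with overlapping groups. NCOR1, a corepressor of the same receptors, differed by 0.13 ± 0.078 (adjusted p = 0.460, edgeR). With SI-2 these 3 differed by 0.095 ± 0.15, -0.044 ± 0.15 and 0.028 ± 0.096, each with an adjusted p of 0.999 (edgeR).

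Related gene lists were read in the same fits. Between BR and WT cells, 0 genes were called in the lists of other arginine methyltransferases (7 tested), other lysine acetyltransferases (7), H3K36 methyltransferases (6), NCOA6 methyltransferase complexes (9), Mediator subunits (32), PGC-1 coactivators (3), nuclear receptor corepressors (10) and genes of SRC-3 turnover (12). Their median log2 fold changes ran from -0.042 for the arginine methyltransferases to 0.18 for the H3K36 methyltransferases, against 0.0042 over all genes. At an unadjusted p under 0.05, besides NSD2 and PRMT1, KAT6A, an acetyltransferase (0.25 ± 0.084), PAXIP1 of the NCOA6 complex (0.28 ± 0.11), CDK19 of the Mediator kinase module (0.37 ± 0.13), PPARGC1B (0.23 ± 0.10) and PSME3, a proteasome activator that degrades SRC-3 (0.25 ± 0.10), had positive estimates. Their adjusted p-values were 0.234 to 0.335 (edgeR). Of all 13520 genes, 0.362% were called between BR and WT cells and 14.4% had an unadjusted p under 0.05. With SI-2 the only gene of these lists with an unadjusted p under 0.05 was SETD2, which trimethylates H3K36 (0.30 ± 0.13, adjusted p = 0.999, edgeR), and 0 were called. Of all genes, 2.22% had an unadjusted p under 0.05 with SI-2 and 0% were called.

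**Figure D5:**
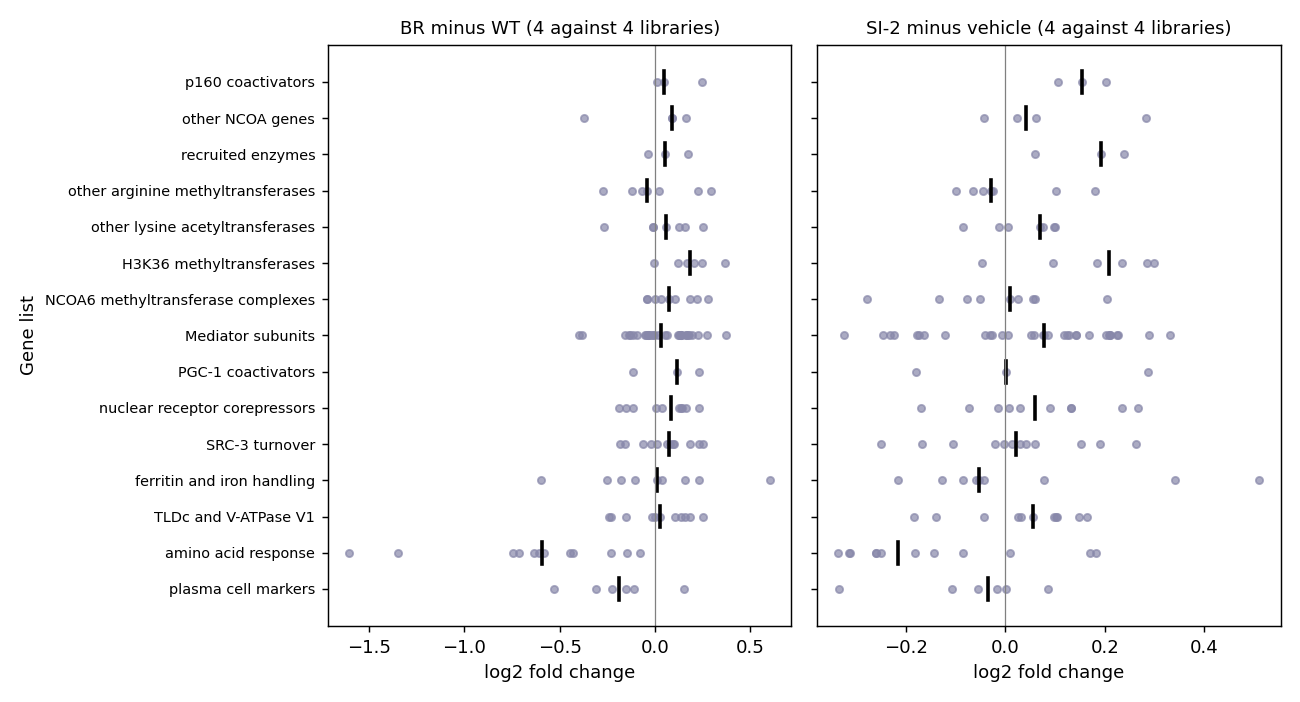
Log2 fold change (x axis) of each tested gene (points) and list median (black bars) in BR minus WT (left) and SI-2 minus vehicle (right), 4 libraries a side, with different x scales. The amino acid response list lies lowest in BR against WT at a median of -0.60, and the other 14 lists drawn lie between -0.19 and 0.18. The list of other cell type markers, with 1 tested gene, is not drawn.

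The genes that share a process with NCOA4 and NCOA7 were read likewise. NCOA4 itself was at 67.05 and 65.06 FPKM in WT vehicle cells, 77.15 and 64.50 in WT SI-2 cells, 69.18 and 80.13 in BR vehicle cells and 67.49 and 81.08 in BR SI-2 cells. Of its cargo, FTL, the ferritin light chain, differed by -0.60 ± 0.13 on the log2 scale between BR and WT cells, whose groups did not overlap (adjusted p = 0.0895, edgeR), and FTH1, the heavy chain, by -0.10 ± 0.092 (adjusted p = 0.620, edgeR). Of 9 ferritin and iron genes 0 were called in either comparison. Among 11 tested TLDc and V-ATPase genes 0 were called, and ATP6V1B2 (0.25 ± 0.093) and ATP6V1G1 (-0.23 ± 0.097), subunits of the pump's catalytic sector, had an unadjusted p under 0.05 with opposite signs. Between BR and WT cells 0.362% of all genes were called, 14.4% had an unadjusted p under 0.05 and 4.36% were lower without overlap.

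Genes of the amino acid response, a stress programme, were set beside the coactivators. The list was chosen with earlier results of these data known, so its counts are a description and not a test. Of 14 amino acid response genes, 12 were tested and all 12 had negative estimates in BR against WT cells, of which 1, INHBE, was called (-1.61 ± 0.25, adjusted p = 0.0237, edgeR). Of all 13520 genes, 6644 had negative estimates and 0.362% were called. TRIB3 (-0.75 ± 0.18), SESN2 (-0.71 ± 0.22) and ATF3 (-1.35 ± 0.44) were not, with adjusted p-values of 0.118 to 0.224 (edgeR). The summed FPKM of the list was 881.1 and 1074.8 with vehicle and 732.8 and 979.7 with SI-2 in WT cells, and 811.7 and 517.5, then 699.6 and 486.2, in BR cells. ASNS was the largest single part of this sum in every library, at 458.1 FPKM in WT vehicle 2 and 186.2 in BR vehicle 2. NCOA7 was highest in WT vehicle 2, where this sum was also highest, and lowest in BR vehicle 2, where the sum was next to lowest. WT vehicle 1 went the other way, with the third highest sum and the next to lowest NCOA7 level (6.0 FPKM). Its part in the NCOA7 difference was not tested. SDC1, a plasma cell surface marker, was the only gene of the 6 plasma cell markers with an unadjusted p under 0.05 (-0.53 ± 0.18, adjusted p = 0.242, edgeR).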

How the data were processed

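Per the labels, RNA was extracted with Trizol and libraries were made by BGI protocols. The submitters' processing notes name BWA, Bowtie2, RSEM and hg19 without versions. The authors deposited estimated counts per gene and transcript, in which reads shared by several features are divided among them, and a second value per library that is taken here as FPKM, from how it relates to the count, since no header names its unit. The estimated counts of NCOA3, NCOA6, NCOA7, EP300 and CARM1 were not whole in any library. Tables of the authors' own DEGseq comparisons and their condition means were not used.

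Here estimated counts were rounded, filtered with filterByExpr, scaled by TMM and tested with edgeR 4.0.16 (quasi-likelihood, Benjamini-Hochberg over all features tested), with 2 groups of 4 libraries (13520 genes, biological coefficient of variation 0.159) or over 4 conditions (13896 genes). Standard errors came from the F statistic. Lengths were inferred from count over FPKM. Shares were tested by exact permutation (SciPy). DESeq2 1.42.0 and limma 3.58.1 were alternatives, with other scalings, filters and omitted libraries. Scripts were tested on simulated data. The genes and lists were chosen with earlier results of these data known. Named were all 10 genes, NSD2, PRMT1, NCOR1, up to 4 genes a list with an unadjusted p under 0.05, and transcripts with at least 5% of their gene. FTH1 was named after its values were seen. Sequences are from GENCODE v29 (GRCh38), matched by RefSeq identifier.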

Additional observations from a re-analysis of the deposited data

Results flagged for a closer look

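A library that stood apart from the other 3 of its group (by Dixon's 95% critical value) was found for 2 of the 40 sets of 4 libraries examined, and chance flags about 1 in 20. NCOA6 was at 165.0 CPM (TMM-scaled counts) in WT SI-2 1, and at 117.1 to 123.4 in the other 3 WT libraries. CREBBP was at 208.6 CPM in BR SI-2 1, and at 156.6 to 161.7 in the other 3 SI-2 libraries. No interaction of SI-2 and line passed the adjusted threshold for any of the 10 genes in edgeR, DESeq2 or limma.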

How the results depend on the processing

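Under every alternative run, 0 of the 10 genes and 0 of their transcripts were called in any comparison. The smallest adjusted p of any gene was 0.169 (NCOA7 without WT vehicle 1). The 20 permutation tests of leading transcript shares also gave 0 calls. Most of these tests would have to reach the smallest p allowed before any share could be called. Their 0 calls therefore cannot show whether the shares depend on the processing. The number of genes called among all genes between BR and WT cells was 49, and 18 (condition terms) to 414 (DESeq2) under the alternatives. Of 520 alternative estimates for single genes, 27 changed sign, 24 of them with 1 library left out, and the cause was not tested. In BR against WT over 8 libraries, NCOA2 was -0.0064 with upper-quartile scaling, and CARM1 was 0.0042 and 0.0048 with limma on log2(FPKM + 1) and log2(FPKM + 0.1). With 1 library left out, the log2 fold change in this comparison ran from -0.078 to 0.072 for NCOA2, -0.025 to 0.15 for NCOA3, -0.022 to 0.15 for EP300 and -0.099 to 0.033 for CARM1. For SI-2 against vehicle it ran from -0.015 to 0.069 for NCOA4, -0.085 to 0.011 for NCOA5, -0.034 to 0.27 for NCOA7 and -0.012 to 0.13 for CARM1. With SI-2 in BR cells it was -0.029 to 0.30 for NCOA1 and -0.058 to 0.24 for NCOA2, and in WT cells -0.097 to 0.37 for NCOA2 and 0.0047 to 0.33 for NCOA1. Between the lines under vehicle it was -0.18 to 0.28 for NCOA2 and -0.098 to 0.24 for NCOA3. The replicate numbers did not pair the samples across the lines: the correlation of replicate differences was -0.196 to 0.211 between conditions of different lines. Between vehicle and SI-2 it was 0.523 in WT cells and 0.464 in BR cells. Libraries of the same number thus shared part of their differences within a line, for which the main SI-2 tests had no term. Not every library was most like those of its own number. With the number as a replicate block 0 of the 10 genes were called in any comparison, within the lines included, and 155 of all genes in BR against WT. With 2 or 4 libraries a side, the 95% intervals given limit which differences can be told from 0.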
